A study of Mus musculus with 4 samples.

Results

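The imprinted growth genes examined in the mouse heart endothelium were Igf2, H19, Dlk1, Plagl1, Mest, Cdkn1c, Peg3, Grb10, Meg3 and Igf2r. They were chosen by name, as 10 of the 27998 genes counted, with their levels by stage and cell class in these data already known, so the levels given here are a description. All 10 were detected.

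Genomic imprinting restricts a gene's expression to the copy inherited from the mother or the copy inherited from the father, and imprinted genes lie in clusters that share a control region. Igf2, Dlk1, Plagl1, Mest and Peg3 are known as paternally expressed, and H19, Cdkn1c, Grb10, Meg3 and Igf2r as maternally expressed in most mouse tissues. Many of these genes promote or restrain fetal growth, and they are known to be turned down in many organs after birth. A count of unique molecular identifiers (UMIs) does not tell the parental copies apart.

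RNA was counted in single cells sorted as CD31+/CD45- from hearts of C57Bl6J mice, in 4 libraries, 1 for each stage: embryonic day 12 (E12, 37 hearts pooled), embryonic day 15 (E15, 48), postnatal day 2 (P2, 21) and adult (8 weeks, 6). No group carried a transgene or a treatment. The cells were frozen after sorting, and enzymes, digestion times and the removal of dead cells differed between the embryonic and the postnatal stages. Digestion time also differed between E12 and E15, and a step to lyse red blood cells was added for the adult samples. Stage and handling therefore cannot be told apart. With 1 pooled library a stage there was no replicate, so no comparison was tested, and every interval below is an exact 95% interval that covers counting error only.

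The libraries held 5732, 6062, 5884 and 4242 cells in the order E12, E15, P2 and adult, with a median of 1241, 1013, 4532 and 1510 UMIs per cell. Pairs of libraries shared 25 to 60 cell barcodes, where 33.0 to 48.4 would be shared by drawing from the 737280 barcodes of the kit. Levels are given as CPM, the UMIs of a gene in all cells of a class over all UMIs of those cells, scaled to a total of 1000000. The 4 classes rest on marker genes: endocardial cells had more UMIs of Npr3 and Tmem108 than of Fabp4, Cldn5 and Aplnr, coronary cells had at least 2 UMIs of the latter 3 and more of them than of the former, valve cells had at least 2 UMIs of Cldn11, Enpp2 and Aqp8, and non-endothelial cells had none of Pecam1, Cdh5 and Egfl7. From E12 to the adult there were 1716, 2115, 1082 and 75 endocardial cells, 113, 1254, 4596 and 4077 coronary cells, 21, 65, 427 and 22 valve cells, and 2995, 1867, 13 and 133 non-endothelial cells.

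These classes overlap. Of the non-endothelial cells 596 at E12 and 545 at E15 were also endocardial by their markers. Also coronary were 181 at E15, 11 of the 13 at P2 and 101 in the adult. The non-endothelial class also depends on depth. With 500 UMIs drawn from each cell before sorting into classes, it held 4070, 3000, 1389 and 730 cells. A cell of this class thus need not be of another kind than endothelial. The coronary gate was wide at the later stages, because Fabp4 was found in 73.6% of P2 and 69.3% of adult endocardial cells and in 92.3% of P2 and 89.5% of adult non-endothelial cells too. Without Fabp4 in the gate, the coronary class shrank to 65, 265, 3571 and 1681 cells and the endocardial class grew to 1729, 2275, 1675 and 150. The 6 endothelial markers summed to 1562 to 4852 CPM in endocardial and 1992 to 5697 CPM in coronary cells, with none at 0. The 7 mesenchymal markers (Col1a1, Col1a2, Col3a1, Postn, Pdgfra, Dcn and Lum) summed to 1293 to 3774 CPM in endocardial and 288 to 713 CPM in coronary cells, and only 2 class sums had a defining gene at 0, Dcn in E12 coronary and Col1a1 in adult endocardial cells. Their part in the results below was not tested, except where the cells with and without a member are set side by side.

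Several members are neighbours or hosts of other RNAs, so their positions are given first (GRCm38, GENCODE). Igf2, a secreted growth factor of the insulin family, lies at chr7:142650766-142666816 on the minus strand, and H19, a long noncoding RNA, lies 72622 bases further downstream at chr7:142575529-142578143 on the same strand. Cdkn1c, the cyclin-dependent kinase inhibitor p57, lies in the neighbouring domain at chr7:143458339-143461050. Dlk1, a transmembrane protein of the Notch ligand family, lies at chr12:109452823-109463336 on the plus strand, and Meg3, a long noncoding RNA, begins 77664 bases behind its end at chr12:109541001-109571726. Plagl1, a zinc finger transcription factor, lies at chr10:13060504-13131694. Mest, a predicted hydrolase, lies at chr6:30723547-30748465, and Peg3, a zinc finger protein, at chr7:6703892-6730431. Grb10, an adaptor that restrains insulin and insulin-like growth factor receptors, lies at chr11:11930508-12038683. Igf2r, the receptor that takes up IGF2 for breakdown, lies at chr17:12682406-12769664. Igf2, Mest, Cdkn1c, Meg3 and Igf2r overlap an antisense or convergent gene that was counted too (Igf2os, Copg2 and Gm44296, Gm44732, Gm26906 and Airn). Taken over whole genes with their introns, the overlap was widest for Igf2r, 28354 bases with Airn, the noncoding RNA of its own domain. The exons of Igf2r cover 9308 bases in all, and the overlap of exons was not measured. Whether strand was used in counting was not given in the sources used here, so reads in these overlaps are uncertain.

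Several members are hosts of microRNAs, which are short RNAs cut from a longer transcript and not seen by a count of polyadenylated ends. The mature sequences are printed to show what travels with each host (RefSeq, GRCm38.p6; U for uracil), with the seed at bases 2 to 8 in capitals. In an exon of H19 lies miR-675 (chr7:142577112-142577133 and chr7:142577078-142577099, minus strand).
miR-675-5p: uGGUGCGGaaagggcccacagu
miR-675-3p: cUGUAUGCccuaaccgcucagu
In an intron of Igf2 lies miR-483 (chr7:142654968-142654989 and chr7:142654932-142654952, minus strand).
miR-483-5p: aAGACGGGagaagagaagggag
miR-483-3p: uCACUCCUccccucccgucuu
In an intron of Mest lies miR-335 (chr6:30741314-30741336 and chr6:30741354-30741375, plus strand).
miR-335-5p: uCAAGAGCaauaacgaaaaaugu
miR-335-3p: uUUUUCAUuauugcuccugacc
In exons of Meg3 lie miR-770 (chr12:109563710-109563731 and chr12:109563744-109563765) and miR-1906 (chr12:109544588-109544609), all on the plus strand.
miR-770-5p: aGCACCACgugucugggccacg
miR-770-3p: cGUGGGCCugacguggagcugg
miR-1906: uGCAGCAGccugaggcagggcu
No seed was shared among these 9. Among the 1738 mature mouse microRNAs of the table, 8 of the 9 seeds occurred once and that of miR-1906 in 2 entries, both of them copies of miR-1906. The hairpins are not among the genes counted here, so only their hosts were measured.

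Promoters of 300 bases, from 250 before to 50 after a start, were matched for 8 of the 10 members (15 promoters in all, not for H19 and Cdkn1c). The letters TGCCGC, read on both strands (GCGGCA on the other), are the core bound by ZFP57, a zinc finger protein that protects imprints when the site is methylated. They occurred in 6 of the 15, against 11.6% of 32851 mouse promoters, and some of the 15 overlap: both later Mest promoters hold the same pair of matches. The others were 1 promoter each of Igf2, Plagl1, Grb10 and Meg3. The letters TGCCGC hold a CG pair, and the promoters of the members had a median of 13 CG pairs against 7 over all promoters. The share of 11.6% takes no account of this, so no excess of matches is read from it. GGGGCCCC, of the kind PLAGL1 is known to bind, occurred in the Peg3 promoter alone (1 of 15, against 1.08% of all), TATAAA in 1 (Meg3, against 13.6%) and CCAAT in 3 (against 37.4%). The Mest promoter with a pair of matches and that of Meg3 are shown, since both genes are followed through the stages below, with the TGCCGC or GCGGCA letters in capitals.
Mest, chr6:30737800-30738099, plus strand: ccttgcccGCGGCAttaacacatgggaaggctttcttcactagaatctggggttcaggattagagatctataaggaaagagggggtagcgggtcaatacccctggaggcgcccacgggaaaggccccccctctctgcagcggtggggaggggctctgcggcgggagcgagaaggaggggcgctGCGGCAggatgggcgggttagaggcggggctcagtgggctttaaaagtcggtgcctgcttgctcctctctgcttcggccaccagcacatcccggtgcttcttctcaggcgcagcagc
Meg3, chr12:109540746-109541045, plus strand: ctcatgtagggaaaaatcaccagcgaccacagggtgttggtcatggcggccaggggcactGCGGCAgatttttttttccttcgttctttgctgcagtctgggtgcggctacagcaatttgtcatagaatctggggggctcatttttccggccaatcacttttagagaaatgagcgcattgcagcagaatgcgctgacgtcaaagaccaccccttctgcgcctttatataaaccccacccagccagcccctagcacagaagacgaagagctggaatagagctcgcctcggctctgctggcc
A match of letters is a description and not a bound site.

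The plot of levels by stage and class shows the course of all 10 members. In endocardial cells all 10 were lowest in the adult, and Dlk1 and Meg3 had no UMI there. In coronary cells 9 of the 10 were lowest in the adult, Cdkn1c was highest there, and Dlk1 had no UMI.

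**Figure D1:**
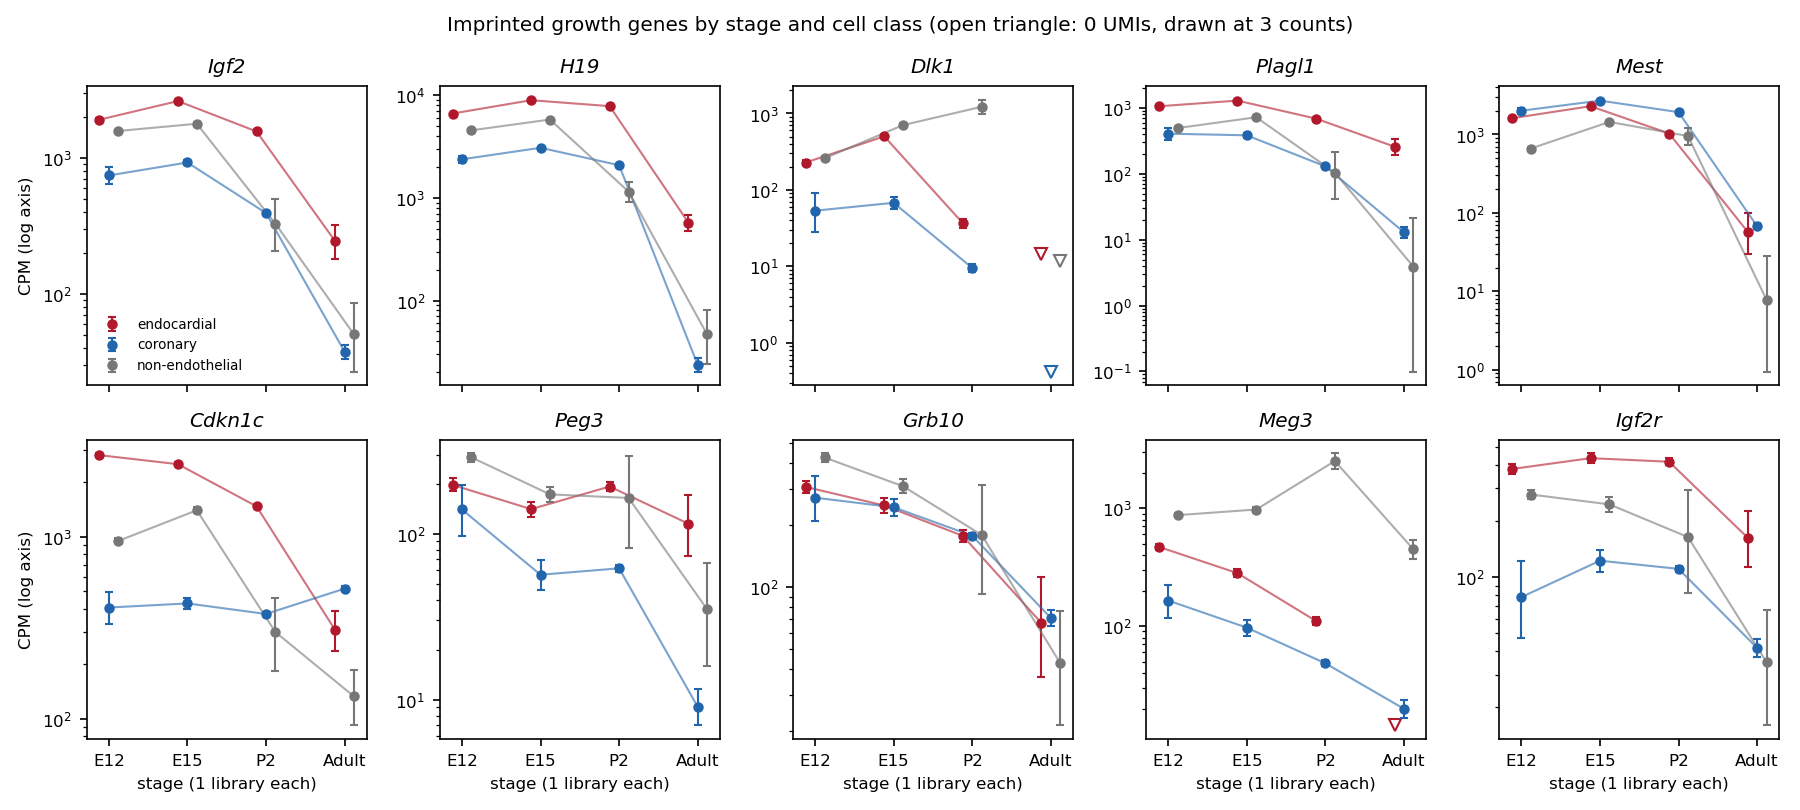
Level (CPM, log axis) of each member at 4 stages in endocardial, coronary and non-endothelial cells. Points are the summed UMIs of all cells of a class in 1 library, bars the exact 95% Poisson interval, and open triangles mark 0 UMIs, drawn at the level of 3 counts. Most lines drop between P2 and adult, while the coronary level of Cdkn1c goes from 376 to 517 CPM.

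Igf2 and its neighbour H19 were high in all embryonic and P2 classes and low in the adult. In endocardial cells Igf2 stood at 1900 CPM at E12 (1846 to 1955), then 2602 at E15 (2539 to 2667), 1558 at P2 (1524 to 1592) and 244 in the adult (182 to 321). Its coronary levels were 741, 923, 393 and 37.8 CPM. The intervals of the adult level lay below those of every other stage in both classes. H19 stood at 6615, 8925, 7808 and 575 CPM in endocardial cells and at 2371, 3070, 2078 and 23.6 CPM (20.2 to 27.5) in coronary cells. Between P2 and the adult, H19 was 13.6-fold lower in endocardial cells (11.4 to 16.4) and 87.9-fold lower in coronary cells (75.6 to 103), and Igf2 was 6.38-fold (4.84 to 8.57) and 10.4-fold lower (9.20 to 11.8). With the coronary gate that leaves out Fabp4, the adult coronary level of H19 was 0.00563 of that at P2. From E12 to E15 both were higher at the later stage in endocardial cells, 1.37-fold for Igf2 (1.32 to 1.42) and 1.35-fold for H19 (1.32 to 1.38). In coronary cells the like step was 1.25-fold and 1.29-fold. Its direction turned when every cell was thinned to 500 UMIs before sorting into classes, to 0.870 for Igf2 and 0.583 for H19. That left 24 coronary cells at E12. With cells thinned after sorting into classes, the mean per coronary cell was 0.434 UMIs of Igf2 at E12 and 0.438 at E15. For H19 it was 1.53 and 1.48.

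The endocardial level was above the coronary level for both at each stage. The ratio for Igf2 was 2.56 at E12 (2.21 to 2.99), then 2.82 at E15 (2.67 to 2.98), 3.96 at P2 (3.85 to 4.08) and 6.46 in the adult (4.69 to 8.73). For H19 it was 2.79, 2.91, 3.76 and 24.3 (19.1 to 30.9). Several of these ratios depend on which cells count as coronary. For H19 the adult ratio was 106 with the gate that leaves out Fabp4, 46.9 when cells were thinned first and 37.5 by per-cell means, the P2 ratio 6.38 without Fabp4 and 5.73 when thinned, and the E12 ratio 1.70 when thinned. For Igf2 the P2 ratio was 5.98 when thinned. Valve cells stood between the 2 classes at E15 and P2, with 1592 and 807 CPM of Igf2 and 6512 and 4686 of H19. These classes share cells, however. Of the 65 valve cells at E15, 10 were also endocardial and 13 also coronary, and of the 427 at P2, 145 and 235. Most P2 valve cells were thus counted in a class they are set beside, so nothing is read from the level between.

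A UMI of H19 was found in 98.5%, 98.9%, 99.3% and 25.3% of endocardial cells and in 92.0%, 84.5%, 86.0% and 1.74% of coronary cells. Thinned to 500 UMIs a cell, these shares were 92.8%, 96.4%, 92.1% and 12% in endocardial and 61.9%, 64.1%, 40.1% and 0.760% in coronary cells. Macrophage-marked cells were taken as a rough measure of free RNA, but RNA of their own and doublets were not told apart from it. They had a UMI of H19 in 65.0% of 20 cells at E12 (median depth 2211 UMIs, against 1277 in endocardial and 1997 in coronary cells) and in 47.8% of 23 cells at E15 (880 UMIs, against 1003 and 1170). Thinned, these were 15% and 31.8%. Their H19 level was 421 CPM at E12 and 592 CPM at E15, and that of Igf2 189 and 197 CPM, below every embryonic endothelial class. The E12 barcodes with at most 50 UMIs, which are not cells, had 7778 CPM of H19 and 1443 CPM of Igf2. These measures of free RNA differ, and its part in the levels was not tested. In the adult, 6 macrophage-marked cells had no UMI of any member, which allows a share of up to 50%. At E12 and E15 thinned H19 stood at a median of 3 and 4 UMIs in endocardial cells and of 1 and 1 in coronary cells, and at P2 at 4 and 0.

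In the adult the remaining H19 was held by few cells. In endocardial cells 120 UMIs lay in 19 of 75 cells, and the 10 highest cells held 82.5% of them. In coronary cells 170 UMIs lay in 71 of 4077 cells, and the 10 highest held 52.4%. The 71 coronary cells with H19 had 455 CPM of the endocardial markers Npr3 and Tmem108, against 23.6 CPM in the 4006 without it, a ratio of 19.3 (14.7 to 25.2), at a median depth of 2126 and 1478 UMIs. They also had 4.26-fold more of the mesenchymal markers (3.89 to 4.67). The same split gave 134 against 31.7 CPM of Npr3 and Tmem108 at P2, a ratio of 4.23 (3.37 to 5.37). The 146 adult coronary cells with Igf2 had 180 CPM of Npr3 and Tmem108 against 27.6 in the others, and 739 against 712 CPM of the mesenchymal markers. Of the 71 adult coronary cells with H19, 16 also had Igf2 (22.5%), against 3.25% of those without H19.

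Igf2 and H19 also met in the same cells at P2 and E15. In P2 coronary cells thinned to 500 UMIs, Igf2 was found in 25.2% of cells with H19 (23.2% to 27.2%) and in 9.23% of those without (8.18% to 10.4%). In E15 endocardial cells the shares were 72.8% (70.8% to 74.8%) and 57.5% (45.4% to 69.0%). The coronary cells with H19 at P2 also held Cdkn1c more often, 19.5% against 10.6%, and Mest less often, 43.8% against 54.4%.

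The ratio of Igf2 to H19 within the same cells has the library size cancelled, and because molecules of different genes are caught with different success it was compared between classes and stages and not read as a ratio of transcripts. In endocardial cells it was 0.287 at E12 (0.278 to 0.297), then 0.292 at E15 (0.284 to 0.300), 0.199 at P2 (0.195 to 0.204) and 0.425 in the adult (0.300 to 0.594). In coronary cells it was 0.313 (0.263 to 0.370), 0.300 (0.284 to 0.318), 0.189 (0.185 to 0.193) and 1.60 (1.32 to 1.95). Through P2 the 2 classes thus lay close to each other in this ratio although their levels lay 2.56-fold to 3.96-fold apart, while the adult intervals of the classes were apart. The adult ratios rest on few cells, which the intervals do not cover. In endocardial cells 48 of the 51 adult Igf2 UMIs lay in 10 cells, and in coronary cells the 10 highest held 33.8%. Nothing is therefore read from the adult intervals being apart. The adult coronary ratio moved most with the processing, between 1.48 and 5.29 over the alternatives.

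**Figure D2:**
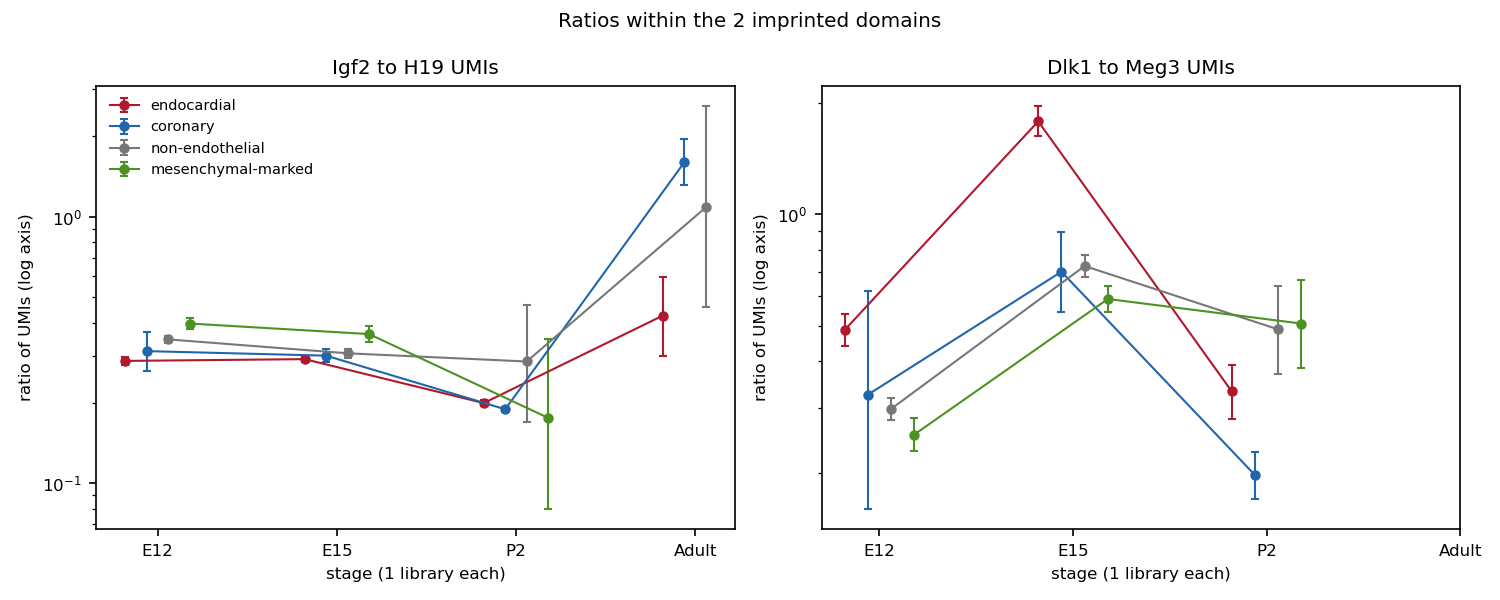
Ratio of UMIs (log axis) of Igf2 to H19, left, and of Dlk1 to Meg3, right, by stage in endocardial, coronary, non-endothelial and mesenchymal-marked cells. Bars are exact 95% intervals of the ratio, and ratios with a count of 0 on one side are not drawn. The Igf2 to H19 ratio of the classes runs close together until P2 and reaches 1.60 in adult coronary cells, while Dlk1 to Meg3 is highest in E15 endocardial cells at 1.78.

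Dlk1 and Meg3, the other pair of neighbours, took courses of their own. Dlk1 stood at 228 CPM in E12 endocardial cells (210 to 248), at 502 at E15 (474 to 531), at 36.7 at P2 (31.6 to 42.3) and at 0 of 208774 UMIs in the adult, which allows up to 14.4 CPM by the limit of 3 counts. In coronary cells it stood at 53.5, 67.9 and 9.52 CPM, and at 0 in the adult. From E15 to P2 it was 13.7-fold lower in endocardial cells (11.7 to 16) and 7.13-fold lower in coronary cells (5.64 to 8.97), the largest such step among the members in either class. The endocardial level at P2 was 0.0404 of that at E15 within the study's limits and 0.0486 by per-cell means, and the coronary level 0.0292 with the gate that leaves out Fabp4. From P2 to the adult it was at least 2.55-fold lower in endocardial and at least 22.8-fold lower in coronary cells, against 3 counts over the class. Of the 190 UMIs in P2 endocardial cells, 83 came from 1 cell and 139 from 10, and of the 225 in the 4596 P2 coronary cells 55 came from 1 cell and 166 from 10.

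Meg3 stood at 470, 281 and 111 CPM in endocardial cells from E12 to P2 and at 0 in the adult, at least 7.70-fold below P2. The P2 level rests on few cells: the 573 UMIs lay in 72 of 1082 cells, with 327 in the 10 highest and 77 in 1. Coronary Meg3 stood at 165, 97.0, 48.3 and 19.9 CPM. Where Dlk1 was 2.2-fold higher at E15 than at E12 in endocardial cells (1.99 to 2.43), Meg3 was 1.67-fold lower (1.52 to 1.84). The ratio of Dlk1 to Meg3 in endocardial cells accordingly was 0.486 at E12, 1.78 at E15 (1.62 to 1.96) and 0.332 at P2. In mesenchymal-marked cells, the non-endothelial cells with at least 5 UMIs of the mesenchymal markers and more of these than of macrophage, cardiomyocyte or erythroid markers, it was 0.254, 0.590 and 0.506, and in the adult 0 Dlk1 UMIs stood beside 91 of Meg3.

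Meg3 and Dlk1 were higher in mesenchymal-marked than in endocardial cells from E12 to P2. Of the non-endothelial cells 596 at E12 and 545 at E15 were also endocardial, so these groups may share cells. How many mesenchymal-marked cells were among them was not counted. The 1001, 590, 9 and 37 mesenchymal-marked cells had 1099, 1938, 2785 and 742 CPM of Meg3 and 279, 1143, 1410 and 0 CPM of Dlk1. Against endocardial cells Meg3 was 2.34-fold higher at E12 (2.17 to 2.52), then 6.89-fold at E15 (6.30 to 7.54) and then 25.2-fold at P2 (21.0 to 30.0, 9 cells), and Dlk1 was 1.22-fold (1.08 to 1.38), 2.28-fold (2.09 to 2.48) and 38.4-fold higher (29.3 to 50.1). Of the 82 Dlk1 UMIs of the mesenchymal-marked cells at P2, 55 came from 1 cell. Of the 13 non-endothelial cells at P2, which hold these 9, 11 were also coronary. Most of the 9 were thus counted in the coronary class too, so at P2 nothing is read from setting them against coronary cells. Within the coronary class cells were split by Meg3 alone. Coronary cells with a UMI of Meg3 (26, 67, 172 and 48 cells) had 737, 3078, 4001 and 17678 CPM of the mesenchymal markers. Those without had 146, 208, 319 and 311 CPM. The depth of the cells with Meg3 was higher too, with medians of 2028, 1893, 6000 and 3350 UMIs against 1977, 1142, 4530 and 1473. In endocardial cells the split gave 2409 against 640 CPM at E12, 4703 against 658 at E15 and 3020 against 1745 at P2.

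**Figure D3:**
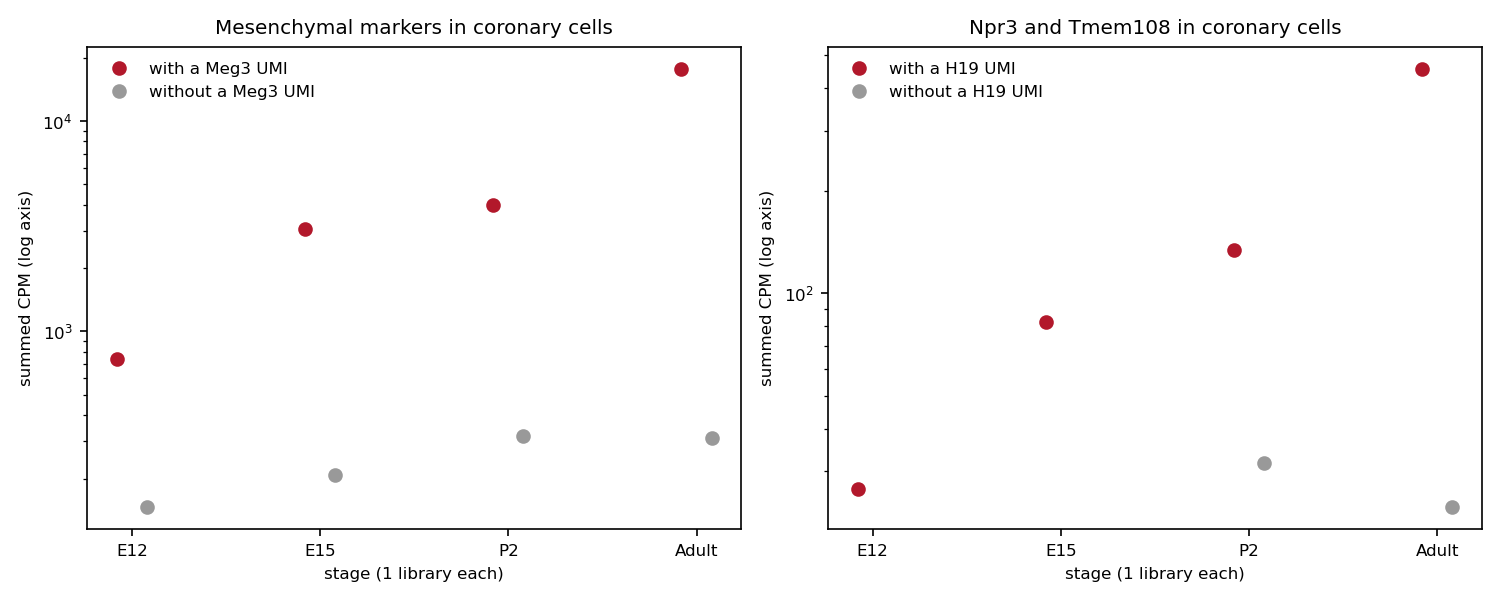
Summed level (CPM, log axis) of the 7 mesenchymal markers in coronary cells with and without a UMI of Meg3, left, and of Npr3 and Tmem108 in coronary cells with and without a UMI of H19, right, by stage. Each point is 1 sum over cells of 1 library with no error drawn, and the cells without H19 had none of the latter markers at E12 and E15. Adult cells with Meg3 lie at 17678 against 311 CPM, and adult cells with H19 at 455 against 23.6 CPM.

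Of the E15 mesenchymal-marked cells thinned to 500 UMIs, 143 had a UMI of Dlk1 and 434 had none. The first had 4.13-fold more Meg3 (5315 against 1286 CPM, 3.53 to 4.84), 4.64-fold more Plagl1 (1091 against 235 CPM) and 4.06-fold more Cdkn1c (1832 against 452 CPM). For Igf2 and H19 the ratios were 1.16 (0.917 to 1.46) and 1.06 (0.925 to 1.22). The E15 cells with Dlk1 had 0.348 (0.201 to 0.568) of the level of the 6 dividing markers (Mki67, Top2a, Ube2c, Ccnb1, Ccnb2 and Cdk1) and 1.95 times that of the mesenchymal markers. In E15 endocardial cells the same split gave smaller ratios, 2.1 for Meg3, 1.29 for Cdkn1c and 1.10 for Plagl1, beside 1.82 for the mesenchymal markers. At E12, where 125 mesenchymal-marked cells had Dlk1 and 875 had none, the ratios were 2.06 for Meg3 (1.69 to 2.51), 2.61 for Plagl1 (1.85 to 3.62) and 2.09 for Cdkn1c (1.46 to 2.93). There the dividing markers were at 0.923 (0.668 to 1.25) and the mesenchymal markers at 1.15 (1.03 to 1.29).

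Cdkn1c took opposite courses in the 2 endothelial classes after P2. In endocardial cells it stood at 2802 CPM at E12 (2737 to 2869), then 2500 at E15 (2438 to 2563), 1466 at P2 (1434 to 1500) and 307 in the adult (236 to 391). In coronary cells it stood at 408 (331 to 496), 429 (398 to 462), 376 (368 to 383) and 517 (501 to 534). The endocardial level thus lay 6.88-fold above the coronary level at E12 (5.64 to 8.47), then 5.82-fold at E15, 3.90-fold at P2 and at 0.592 of it in the adult (0.455 to 0.758). When cells were thinned first the ratio was 12.6 at E12 and 0.377 in the adult. The adult level was 4.78-fold lower than at P2 in endocardial cells (3.74 to 6.22) and 1.38-fold higher in coronary cells (1.33 to 1.43). The small step from E15 to P2 in coronary cells, 0.875, was 1.15 without cells of a high doublet score. In the adult, 3720 of the 4843 UMIs of the 5 maternally expressed members in coronary cells were of Cdkn1c, and the 5 paternally expressed ones had 916. Their ratio, paternal to maternal, was 1.02, 1.04, 0.903 and 0.189 in coronary and 0.473, 0.552, 0.351 and 0.608 in endocardial cells.

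Cdkn1c was also lower in dividing cells, those with at least 2 UMIs of the 6 dividing markers, than in cells with none. The ratio was 0.579 at E12 (0.542 to 0.618), then 0.602 at E15 (0.548 to 0.660) and 0.792 at P2 (0.722 to 0.868) in endocardial cells, and 0.627 at E15 (0.516 to 0.759), 0.421 at P2 (0.398 to 0.445) and 0.198 in the adult (0.115 to 0.318) in coronary cells. Dividing cells are deeper, so each cell was also thinned to 500 UMIs after sorting into classes. The ratios were then 0.622, 0.635 and 0.877 in endocardial cells, the last with an interval that included 1 (0.617 to 1.21, 62 dividing cells). In coronary cells they were 0.616, 0.367 and 0.0898 (0.00227 to 0.501, 41 dividing cells). E12 coronary cells were the exception, at 3.02 (1.77 to 5.39), from 32 dividing and 54 non-dividing cells, where 1 cell held 18 of the 99 UMIs of the class, the thinned ratio was 1.45 (0.402 to 5.03) and the ratio without high doublet scores was 1.81. In E15 coronary cells the ratio was 0.169 when cells were thinned before sorting into classes.

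H19 and Mest were set beside it. H19 was lower in dividing cells in the embryo, at 0.739 and 0.734 in E12 and E15 endocardial cells and 0.767 in E15 coronary cells, and at 0.629 in P2 coronary cells. In P2 endocardial cells it was level, at 0.968. The E12 endocardial ratio turned to 1.15 when cells were thinned before sorting into classes, and was 0.794 (0.736 to 0.856) when they were thinned after it. Adult coronary dividing cells had 6.43 times the H19 of the others, but the ratio was 1.32 without cells of a high doublet score, 1.41 with exclusive classes and 3.25 by per-cell means. Mest was higher in dividing coronary cells at P2, at 1.42 (1.39 to 1.44), and in the adult, at 3.91 (2.73 to 5.45), the latter 2.27 within the study's limits on UMIs and genes and 1.89 when thinned first. At E12 and E15 the coronary ratio was 1.07 (0.870 to 1.32) and 1.07 (0.998 to 1.14), and with cells thinned after sorting into classes it was 2.04 (1.30 to 3.23, 32 dividing cells) and 1.11 (0.979 to 1.25). In embryonic endocardial cells it was 0.772 and 0.842. In P2 endocardial cells it was 1.34 and turned to 0.638 when thinned first. With cells thinned after sorting into classes it was 1.50 there (1.04 to 2.09, 62 dividing cells).

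Within coronary cells the artery-marked ones, with at least 2 UMIs of Gja4, Gja5 and Cxcl12, had more Cdkn1c and less Mest than the rest. They were 84 of 1254 coronary cells at E15, 832 of 4596 at P2 and 2141 of 4077 in the adult. The share past this gate was thus largest in the adult, where the median depth of coronary cells was 1485 UMIs against 4562 at P2. A marked cell need not be an artery cell. Whether the same kind of cell was marked at each stage was not tested, so the ratios describe each stage on its own. For Cdkn1c the ratio was 1.88 at E15 (1.51 to 2.33), 1.91 at P2 (1.83 to 2.00) and 1.57 in the adult (1.46 to 1.68), and 2.96 at P2 with the gate that leaves out Fabp4. For Mest it was 0.582 (0.505 to 0.668), 0.463 (0.449 to 0.478) and 0.570 (0.475 to 0.685), and at P2 it was 0.226 when cells were thinned first. H19 was 1.68-fold higher at E15 (1.54 to 1.82), 1.13-fold at P2 (1.73 without Fabp4, 0.837 thinned first) and at 0.271 in the adult (0.189 to 0.383), where the gate without Fabp4 gave 0.835. In E15 artery-marked cells Dlk1 was 5.46-fold higher (3.57 to 8.20), which was 3.22 with exclusive classes, 3.52 with a higher marker minimum and 2.92 without Fabp4. Meg3 was 7.08-fold higher there (5.07 to 9.81). Its ratio was 0.962 at P2, or 2.80 with the gate without Fabp4. In the adult it was 0.499, or 0.823 with a higher marker minimum and 0.908 without Fabp4. The 10 highest of the 1254 coronary cells held 47.4% of the Dlk1 and 43.6% of the Meg3 UMIs at E15. At P2 the Dlk1 ratio was 0.218, and 0.409 by per-cell means and 1.59 with the gate without Fabp4. At E12 there were 5 artery-marked cells, too few to describe.

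**Figure D4:**
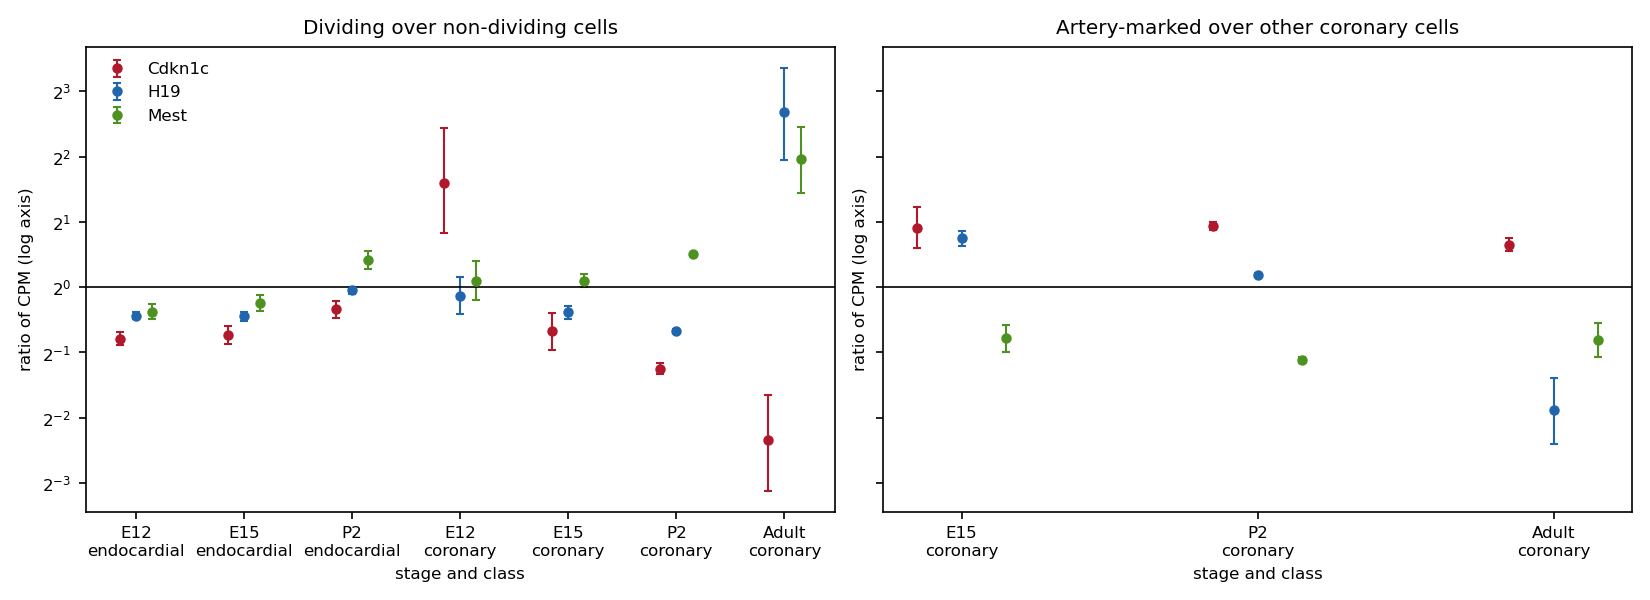
Ratio of CPM (log axis) of Cdkn1c, H19 and Mest in dividing over non-dividing cells, left, and in artery-marked over other coronary cells, right, by stage and class. Bars are exact 95% intervals and the line marks 1. Cdkn1c lies below 1 in dividing cells except at E12 in coronary cells (3.02), and above 1 in artery-marked cells, where Mest lies between 0.463 and 0.582.

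Endocardial cells with more UMIs of Igfbp5 and Cytl1 were set against those with more of Pla2g7 and Prr15. At E12 and E15, 0 of the 10 members lay 2-fold or more apart between these sides in either direction, against 12.5% and 11.1% of all genes with at least 20 UMIs. At P2 1 did, against 7.43%, which was Dlk1 at 0.187 (0.139 to 0.252). Of the 190 Dlk1 UMIs in P2 endocardial cells, 83 came from 1 cell and 139 from 10. How far this ratio rests on those cells was not tested. The largest other ratios were those of Peg3 and Meg3 at E12, 1.88 and 1.87.

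Mest stood out, until P2, as the member with a higher level in coronary than in endocardial cells. It stood at 1611, 2295, 1029 and 57.5 CPM in endocardial cells and at 2009, 2704, 1927 and 67.6 CPM in coronary cells. The ratio of endocardial to coronary level was 0.802 (0.730 to 0.883), 0.849, 0.534 (0.519 to 0.549) and, from 12 endocardial UMIs in the adult, 0.850 (0.436 to 1.50), which was 1.56 when cells were thinned first. Adult Mest was 17.9-fold below P2 in endocardial cells (10.2 to 34.7) and 28.5-fold below it in coronary cells (26.1 to 31.2), and the endocardial level was 0.0987 of that at P2 when cells were thinned first. From E15 to P2 it was 2.23-fold lower in endocardial cells and 1.40-fold lower in coronary cells. Mesenchymal-marked cells had little, 369 and 534 CPM at E12 and E15.

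Plagl1 was highest at E15 and lowest in the adult in endocardial cells, like Igf2 and H19. In coronary cells it was not higher at E15 than at E12. It stood at 1063, 1296, 690 and 259 CPM in endocardial cells and at 408, 385, 130 and 12.9 CPM in coronary cells, with a ratio between them of 2.61, 3.36, 5.32 and 20.0 (14.0 to 28.3). The adult ratio was 51.6 with the coronary gate that leaves out Fabp4 and 32.7 by per-cell means. From P2 to the adult it was 2.67-fold lower in endocardial cells (2.04 to 3.56) and 10.0-fold lower in coronary cells (8.17 to 12.5), where the adult level was 0.0647 of that at P2 without Fabp4 in the gate. Adult Plagl1 was spread over more endocardial cells than adult H19: 54 UMIs lay in 39 of 75 cells (52.0%), and in coronary cells 93 UMIs in 64 of 4077 (1.57%).

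The remaining members are Peg3, Grb10 and Igf2r. Peg3 stood at 197, 141, 192 and 115 CPM in endocardial cells, where the adult was 1.67-fold below P2 (1.12 to 2.63), and at 140, 56.5, 61.8 and 9.04 CPM in coronary cells, where it was 6.84-fold below P2 (5.33 to 8.91). Grb10 stood at 306, 249, 177 and 67.1 CPM in endocardial and at 272, 244, 178 and 70.9 CPM in coronary cells, and the ratios between the classes, 1.13, 1.02, 0.999 and 0.945, had intervals that included 1 at each stage. Igf2r stood at 381, 435, 416 and 163 CPM in endocardial and at 78.2, 123, 111 and 41.7 CPM in coronary cells, 3.55-fold to 4.87-fold apart. Its adult step from P2, 2.56-fold in endocardial (1.82 to 3.70) and 2.66-fold in coronary cells (2.36 to 3.0), was of like size in both. When cells were thinned before sorting into classes, the adult endocardial level of Igf2r was 1.18 times the coronary level and 0.0765 of its P2 level.

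**Figure D5:**
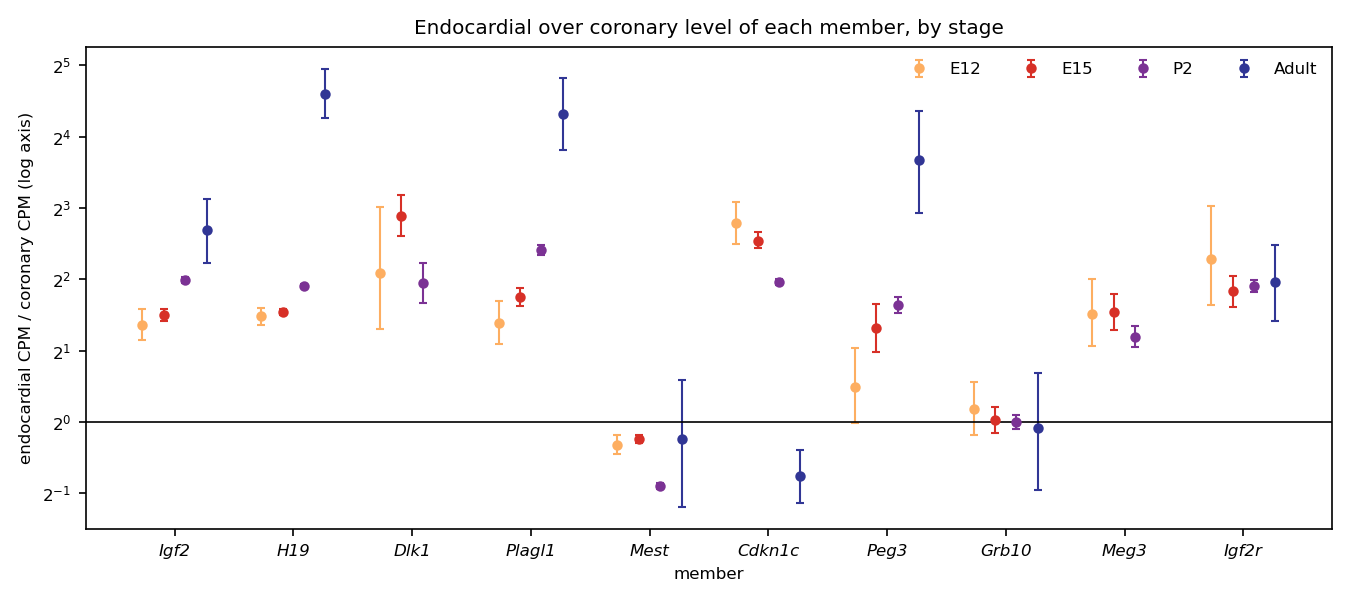
Endocardial level over coronary level (ratio of CPM, log axis) of each member at the 4 stages, with exact 95% intervals and a line at 1. Grb10 lies at 1 at every stage, and Mest lies below 1 until P2, with an adult interval that includes 1. Cdkn1c passes from 6.88 at E12 to 0.592 in the adult. H19, Plagl1 and Peg3 reach 24.3, 20.0 and 12.7 in the adult (12.7 was 8.13 when cells were thinned first).

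The counts of members past 2-fold are given beside those over all genes with at least 20 UMIs in the 2 sides. Both rest on the values that chose the members, so nothing is read from the difference. From E12 to E15, 0 of 10 members were lower by at least 2-fold in endocardial cells, against 4.79% of genes, and 1 (Peg3) in coronary cells, against 5.21%. From E15 to P2, 3 (Dlk1, Mest and Meg3) were lower in endocardial cells, against 5.7%, and 4 (Igf2, Dlk1, Plagl1 and Meg3) in coronary cells, against 5.82%. From P2 to the adult, 9 (all but Peg3) were lower in endocardial cells, against 11.5%, and 9 (all but Cdkn1c) in coronary cells, against 13.4%. The median log2 ratio of that last step was -1.84 over the members and 0.05 over all genes in endocardial cells, and -3.05 and 0.00 in coronary cells. Higher by at least 2-fold in endocardial than in coronary cells were 7 members at E12 against 17.4% of genes, 8 at E15 against 12.4%, 8 at P2 against 10.4%, and 5 of 9 in the adult against 20.1%. The 7 were Igf2, H19, Dlk1, Plagl1, Cdkn1c, Meg3 and Igf2r, Peg3 joined at E15 and P2, and the 5 in the adult were Igf2, H19, Plagl1, Peg3 and Igf2r. Meg3 at E12 went to 0.606 when cells were thinned first.

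Other genes listed as imprinted, only some of them of the same loci, did not all share these courses. Whether they are imprinted in these cells was not measured. The list of other imprinted genes held 43, of which 41 were counted. Airn, the noncoding RNA that overlaps Igf2r, stood at 82.5, 161, 183 and 115 CPM in endocardial and 28.8, 59.5, 48.9 and 19.2 CPM in coronary cells. Kcnq1ot1, the noncoding RNA of the Cdkn1c domain, stood at 237, 278, 186 and 206 CPM in endocardial and 90.6, 117, 88.0 and 105 CPM in coronary cells, without the adult drop. Cd81, which lies near the same domain and codes for a tetraspanin of the cell surface, was higher at later stages, at 613, 912, 2006 and 1729 CPM in endocardial and 543, 987, 3456 and 3908 CPM in coronary cells. Gnas, the G protein subunit that couples receptors to adenylyl cyclase, was lower in the adult like the members, at 1278, 1337, 1339 and 326 CPM in endocardial and 3095, 3379, 2222 and 541 CPM in coronary cells. Copg2, the neighbour that overlaps the end of Mest, stood at 24.3 and 23.7 CPM at P2 and 23.9 and 15.3 CPM in the adult, and Usp29, next to Peg3, at 17.6 and 3.89 CPM at P2 and 9.58 and 0.417 CPM in the adult, endocardial before coronary. Phlda2 and Mirg were near 0, with at most 6 and 17 UMIs in any of these classes. From P2 to the adult, 2 of 25 other imprinted genes with enough UMIs were lower by at least 2-fold in endocardial cells and 7 were higher, and in coronary cells 11 of 26 were lower and 3 higher, against 11.5% and 15.4% of all genes in endocardial and 13.4% and 11.4% in coronary cells. Dcn, a secreted proteoglycan that also is one of the mesenchymal markers, was among the higher in both, with 2357 and 458 CPM in the adult. Sgce, Ube3a and Ndn, the remaining of the 8 with the most UMIs, ranged from 18.6 to 139 CPM. In coronary cells Sgce was at least 2-fold higher at E15 than at E12 and again at P2 than at E15. Ndn was at least 2-fold lower in adult than in P2 coronary cells.

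Of the insulin-like growth factor pathway, 17 genes were listed and counted, with Igf2, Igf2r and Grb10 among them. Igf1, the other ligand, stood at 301, 276, 211 and 4.79 CPM in endocardial and 123, 140, 129 and 22.8 CPM in coronary cells. Igf1r, the receptor that signals for both ligands, stood at 51.3, 38.0, 35.1 and 71.8 CPM in endocardial and 32.9, 30.4, 28.3 and 35.9 CPM in coronary cells. Insr, the insulin receptor, stood at 16.2, 19.6, 23.7 and 38.3 CPM and 20.6, 7.14, 9.22 and 16.6 CPM. The proteins that bind Igf2 mRNA were lower in the adult than at P2 in coronary cells. Igf2bp1 stood at 74.4, 34.3, 1.93 and 0 CPM in endocardial and 53.5, 32.1, 4.69 and 0 CPM in coronary cells. Igf2bp2 stood at 53.8, 34.3, 10.8 and 0 CPM and at 61.7, 25.6, 17.8 and 0.696 CPM. Igf2bp3 stood at 56.6, 46.6, 39.4 and 19.2 CPM and at 41.2, 35.1, 39.7 and 20.9 CPM. In adult endocardial cells a count of 0 allows up to 14.4 CPM, by the limit used for Dlk1 above. That lies above the endocardial P2 levels of Igf2bp1 and Igf2bp2, so no adult drop of these can be read there. The adult endocardial levels of Igf1 and Igf2bp3 rest on few of the 208774 UMIs of the class. From P2 to the adult, 7 of 13 pathway genes with enough UMIs were lower by at least 2-fold in endocardial cells and 2 were higher, and in coronary cells 8 of 15 were lower and 2 higher. Igf2, Igf2r and Grb10, whose levels were known before, are among the lower in both classes. Over all genes 11.5% were lower and 15.4% higher in endocardial and 13.4% and 11.4% in coronary cells.

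The likeness of courses was measured as Pearson's correlation of log2(CPM + 10) over the 16 points of 4 stages and 4 classes, as a description, since points of a stage share a library and classes share cells. The member nearest to Igf2 was H19 (0.966), to Plagl1 Igf2 (0.952), to Igf2r Igf2 (0.897), to Grb10 Igf2 (0.891), to Mest Grb10 (0.857), to Cdkn1c and Peg3 Igf2r (0.850 and 0.849), and Dlk1 and Meg3 were nearest to each other (0.809). With log2(CPM + 1) 8 of the 10 kept their nearest member, while Dlk1 was nearest to Grb10 (0.868) and Peg3 to Igf2 (0.852), and with valve cells left out 7 kept it. Over 11714 genes the nearest gene outside the list was Ckap4 for Grb10 (0.976), Rps6 for Plagl1 (0.945), Mdfi for Igf2 (0.937), Sub1 for Mest (0.937), Adgrg6 for Igf2r (0.935) and Cdkn1c (0.853), Mdk for Peg3 (0.935), Hmgn2 for H19 (0.931), Tro for Dlk1 (0.927) and Fbn1 for Meg3 (0.901). Fbn1, which codes for the matrix protein fibrillin-1, is known from mesenchymal cells. The mean course of the members was nearest to Serf2, Ckap4, Limd2, Mdk and Ost4 (0.941 to 0.919), and this order depended on the scale: 2 of the 5 were shared with log2(CPM + 1) and 1 with valve cells left out.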

How the data were processed

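Sorted CD31+/CD45- heart cells were measured in 4 single-cell libraries (10x Genomics v2, 3' ends), 1 per stage from pooled animals. The deposited values are raw UMI counts, which the authors made with Cell Ranger 2.2 (version from the submitters' processing notes) on mm10 and did not normalize. Strand settings were not given in the sources used here. The E15, P2 and adult files held called cells. The E12 file held all barcodes, and those with at least 452 UMIs were kept (order-of-magnitude rule, 3000 expected cells, quantile 0.99, share 0.1). They held 88.7% of its UMIs. Libraries held 7079759 to 29645059 UMIs in cells.

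UMIs were summed per class and stage and divided by all UMIs of those cells (CPM), with exact Poisson intervals for levels, exact binomial intervals for shares and exact conditional binomial intervals for ratios, all 95%. Intervals cover counting error only. A count of 0 was replaced by 3 counts in a fold, over the class. With 1 library a stage no test between stages or classes was made, and a gene counted as higher or lower past 2-fold, among genes with at least 20 UMIs over both sides. Doublets were kept, and a Scrublet score of at most 0.15 was tried as an alternative. Scripts were tested on simulated counts.

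The 10 members and the lists were chosen with earlier results of these data known. Named were all 10 members, of the other imprinted genes the 8 with the most UMIs and those of a member's own domain, of the IGF pathway Igf1, the receptors and the mRNA-binding proteins, and the nearest genes by course. The 5-UMI minimum for marked non-endothelial cells, the splits by UMIs of a member, and the alternatives of a coronary gate without Fabp4 and of non-endothelial cells without any class marker were chosen after seeing the data. Tools were Python 3.11.15, numpy 2.4.6, scipy 1.17.1, pandas 2.3.3, scanpy 1.11.5 and matplotlib 3.10.9. Sequences and positions came from RefSeq and GENCODE tables of GRCm38.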

Additional observations from a re-analysis of the deposited data

Results flagged for a closer look

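The step of Cdkn1c from P2 to the adult pointed in opposite directions in the 2 endothelial classes, with a ratio of 0.209 in endocardial cells (0.161 to 0.267, 75 adult cells) and of 1.38 in coronary cells (1.33 to 1.43). With 1 library a stage the difference between the classes was not tested.

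The E12 file also holds barcodes that are not cells. The 155236 barcodes with at most 50 UMIs held 619013 UMIs in all, and every member was found among them, at 1443 CPM for Igf2, 7778 for H19, 263 for Dlk1, 814 for Plagl1, 1257 for Mest, 1171 for Cdkn1c, 249 for Peg3, 305 for Grb10, 761 for Meg3 and 402 for Igf2r. Higher there than in E12 endocardial cells were H19 (6615 CPM in those cells), Meg3 (470), Dlk1 (228), Peg3 (197) and Igf2r (381). For Dlk1, Peg3 and Igf2r the intervals overlapped. Lower there were Igf2 (1900), Plagl1 (1063), Mest (1611) and Cdkn1c (2802 CPM), and Grb10 was level (306). All members but Mest stood higher there than in E12 coronary cells, Grb10 with overlapping intervals. How far such RNA adds to the E12 levels was not tested. The macrophage-marked cells of E12 had 421 CPM of H19 and 105 of Cdkn1c. No such barcodes came with the other libraries used here.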

How the results depend on the processing

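No paired analysis was possible because each stage had 1 library and no result comes from a test across samples.

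Of the members past 2-fold the counts were 2 to 4 and 3 to 5 from E15 to P2 and 8 to 10 and 8 to 9 from P2 to the adult over the alternatives, endocardial before coronary. From E12 to E15 the endocardial count went from 0 to 1 when cells were thinned, and the coronary count from 1 to 2 under the study's limits, without high doublet scores, by per-cell means and without Fabp4. At 4-fold the counts were 1 and 1 at P2, 5 in the adult endocardial cells, 0 in E15 coronary cells, and 3, 2 and 1 for endocardial above coronary at E12, E15 and P2. Between the endocardial sides 1 member was past 2-fold at E15 without high doublet scores and when thinned, 1 at E12 with a higher marker minimum and by per-cell means, and 3 at P2 when thinned. The shares over all genes given above hold for 2-fold in the main setting only. Without such shares for the changed settings, nothing is read about the members from the counts in this paragraph.

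The ratio of Igf2 to H19 in endocardial cells moved at E12 to 0.273 (exclusive classes), 0.276 (higher minimum) and 0.269 (thinned), and at P2 to 0.227 (thinned), 0.215 (per-cell means) and 0.190 (without Fabp4). In coronary cells it moved at E12 to 0.192 (thinned), at E15 to 0.278 (without Fabp4), at P2 to 0.194 (exclusive classes), 0.218 (thinned), 0.209 (per-cell means) and 0.211 (without Fabp4), and in the adult to 2.1 (study limits), 3.04 (thinned), 2.25 (per-cell means) and 5.29 (without Fabp4). Cdkn1c in dividing over non-dividing endocardial cells moved at E12 to 0.669 (study limits), 0.732 (higher minimum), 0.809 (thinned) and 0.640 (per-cell means), and at E15 to 0.664, 0.675 (exclusive classes), 0.791 and 0.661. In coronary cells it moved at E15 to 0.428 (study limits), 0.169 (thinned) and 0.812 (without Fabp4) and at P2 to 0.366 (thinned).

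The direction reversed for Cdkn1c from E15 to P2 in coronary cells (1.15 without high doublet scores, 1.00 thinned), for Meg3 (1.25, higher minimum), Igf2 (0.870 thinned, 0.976 per-cell means, 0.927 without Fabp4) and H19 (0.583 thinned) from E12 to E15 in coronary cells, and for Grb10 (1.15) and Igf2r (0.966) in endocardial cells when thinned. It also reversed when thinned for Meg3 endocardial over coronary at E12 (0.606), H19 (1.15 at E12) and Mest (0.638 at P2) in dividing endocardial cells, and Igf2 (0.779) and H19 (0.837) in P2 artery-marked cells. There Igf2 was 0.99 by per-cell means and Dlk1 1.59 without Fabp4. The cause was not tested. Thinning keeps 500 UMIs a cell, so fewer UMIs stand behind each value, and here it came before sorting into classes. At E12 the coronary class then held 24 cells, against 113. Leaving haemoglobin, mitochondrial and ribosomal genes out of the total moved the median log2 of all genes from E15 to P2 from 0.24 to 0.04 in endocardial and from 0.31 to 0.08 in coronary cells. The 5 genes nearest to the members' mean course shared 2 and 1 with log2(CPM + 1) and without valve cells.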
